A study of Mus musculus with 20 samples.

Results

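The 44 genes described here copy DNA or prepare a cell to do so. They license replication origins, fire them, synthesize DNA, supply nucleotides, package the new DNA, or switch the rest on or off as E2F transcription factors. They were picked by gene symbol. All 44 were found among the 49568 genes of the deposited count tables, and all 44 passed the filter on low counts in every comparison. In MPP, 24 of them were higher than in LT-HSC in AhR-KO mice and 19 in WT mice. Over all genes tested, 12.5% were called higher in AhR-KO and 11% in WT. Cdc7, Cdc45, Mcm10, Gins1 and Tk1 were among the members higher in both. Between AhR-KO and WT cells none of the 44 passed the test in either population.

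A cell enters S phase in steps. In G1 the origin recognition complex, with CDC6 and CDT1, loads the MCM helicase onto origins, which licenses them. The kinases CDC7 and CDK2 then switch the helicase on together with CDC45 and the GINS complex, and polymerases copy the strands behind the sliding clamp PCNA. E2F factors turn on most of these genes when the RB protein is phosphorylated. Most LT-HSC rest outside the cell cycle, while multipotent progenitors divide more often.

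The RNA came from cells sorted by flow cytometry from the bone marrow of untreated mice aged 8 to 12 weeks. LT-HSC are long-term haematopoietic stem cells, which renew themselves, and MPP are their multipotent progeny. The 4 groups are AhR-KO MPP, WT MPP, AhR-KO LT-HSC and WT LT-HSC, with 5 libraries each. AhR-KO marks mice described as knocked out for Ahr, which encodes the aryl hydrocarbon receptor, a ligand-activated transcription factor; WT marks C57BL/6 mice. The labels give C57BL/6 as the strain of every sample and name no allele, so whether the deletion is in all cells is not given in the sources used here. They do not say whether the libraries of a group came from separate animals, and p-values then measure the spread between these libraries. The study asked how AHR and its target genes act on the function and proliferation of stem and progenitor cells, with Aurora A and the G2 to M transition in its title.

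Library totals were 13712668 to 20738468 counts in AhR-KO MPP, 15496924 to 20375242 in WT MPP, 16133048 to 21484304 in AhR-KO LT-HSC and 18105914 to 21622653 in WT LT-HSC. Ahr transcripts were counted in every library, at 15.9 ± 3.91 CPM in AhR-KO MPP against 9.81 ± 3.66 in WT MPP, and at 23.6 ± 4.14 CPM in AhR-KO LT-HSC against 26.5 ± 6.35 in WT LT-HSC (SD, n = 5 each). CPM are counts scaled per library, on TMM-scaled totals. Gene counts therefore do not check the genotype label, and directions below hold between libraries as labelled. The population labels matched their markers: in MPP, 17 of 17 LT-HSC markers were lower than in LT-HSC in AhR-KO and 16 of 17 in WT, and 13 of 15 MPP markers were higher in each genotype. The populations were deposited as separate tables, so a difference in handling between the tables cannot be told apart from the populations.

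Some LT-HSC libraries stand apart. For the library WT LT-HSC 1, Pearson's r with its 4 fellow libraries was 0.925 to 0.930 over log2 CPM, while every other pair within a group had r of at least 0.958. Its mitochondrial share was 0.386%, against at least 1.07% in the other 4. Its 17 LT-HSC markers summed to 3914 CPM, against 5397 to 5704 in the other 4. Its 13 genes of CDK inhibition and quiescence summed to 748 CPM, against 1167 to 1507. Its 39 genes of G2 and mitosis summed to 4682 CPM, against 2458 to 2952. Its 15 MPP markers were not raised, at 852 CPM against 880 to 1646. The libraries AhR-KO LT-HSC 2 and 3 held 1728 and 2049 CPM of 13 summed neutrophil genes, against 121 to 208 in the other AhR-KO LT-HSC libraries and 88.1 to 467 in WT LT-HSC. Their 12 erythroid genes summed to 2745 and 3163 CPM, against 137 to 413 in the other AhR-KO LT-HSC libraries and 431 to 1931 in WT LT-HSC. Their 15 MPP markers summed to 3408 and 2618 CPM, against 671 to 1124 in the other AhR-KO LT-HSC libraries and 852 to 1646 in WT LT-HSC. AhR-KO LT-HSC 3 also held 4335 CPM of 10 stroma and endothelium genes. The neutrophil sum was 807 to 3527 CPM in AhR-KO MPP and 1643 to 3042 in WT MPP. No gene of these lists was at 0 in all 5 libraries of a group. Their part in the results below was not tested, and the counts of members, with the members whose calls changed, are given below without these libraries.

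Promoters of 6 members are shown first, since E2F factors act there. RefSeq windows of the GRCm38.p6 build, from 250 bases before the transcription start to 50 after it, were given for 38 of the 44 members. Cdc7 and Mcm10 have the largest fold changes among the members higher in WT MPP, Chaf1b and Slbp the lowest, and Mcm5 and Mcm6 were added after their sequences were seen because E2F strings overlap on both strands. Each stretch has 120 bases and runs 5′ to 3′ along the gene, ending at the last base before the start, except in Mcm5 and Mcm6, where it ends 51 bases before. Capitals mark the E2F strings TTTGGCGC, TTTCCCGC, TTTCGCGC and TTTGCCGC and the NF-Y string CCAAT on either strand.
Cdc7, chr5:106964202-106964321, plus strand: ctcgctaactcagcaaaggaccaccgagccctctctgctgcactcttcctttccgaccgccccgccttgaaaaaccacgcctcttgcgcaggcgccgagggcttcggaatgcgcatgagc
Mcm10, chr2:5012792-5012911, minus strand: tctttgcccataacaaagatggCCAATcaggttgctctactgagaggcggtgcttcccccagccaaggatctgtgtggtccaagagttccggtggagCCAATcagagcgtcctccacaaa
Chaf1b, chr16:93883781-93883900, plus strand: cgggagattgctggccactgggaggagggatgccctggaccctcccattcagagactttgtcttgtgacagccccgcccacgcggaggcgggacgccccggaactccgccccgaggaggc
Slbp, chr5:33652575-33652694, minus strand: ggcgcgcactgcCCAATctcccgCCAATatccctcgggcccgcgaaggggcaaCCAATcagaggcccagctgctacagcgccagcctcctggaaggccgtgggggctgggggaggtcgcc
Mcm5, chr8:75109339-75109458, plus strand: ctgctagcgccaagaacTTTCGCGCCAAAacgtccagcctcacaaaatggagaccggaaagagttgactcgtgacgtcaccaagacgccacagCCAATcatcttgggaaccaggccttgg
Mcm6, chr1:128359756-128359875, minus strand: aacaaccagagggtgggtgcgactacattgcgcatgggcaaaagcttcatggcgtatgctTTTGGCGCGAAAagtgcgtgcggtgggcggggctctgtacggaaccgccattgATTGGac

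The E2F strings occurred in 33.3% of the 45 windows of the members, and in 2.26% of the 32851 windows of all genes. They were found in 15 members: Mcm3, Mcm5, Mcm6, Mcm7, Orc1, Cdc6, Cdt1, Cdk2, Gins3, Pola1, Rfc3, Lig1, Uhrf1, E2f2 and E2f7. CCAAT occurred in 60% of member windows and in 37.4% of all windows. TNGCGTG, the core to which AHR binds, occurred in 4 member windows, those of Mcm2, Cdt1, Rfc4 and Rpa2, or 8.89% against 5.07% of all windows. A match describes the letters only. Of the 15 members with an E2F string, 7 were higher in MPP than in LT-HSC in AhR-KO and 5 in WT. Of the 23 without one, 13 were higher in AhR-KO and 12 in WT. Over all genes tested, 12.5% were called higher in AhR-KO and 11% in WT. The median log2 fold change in WT was 0.28 with a string and 0.40 without. The windows of Cdc7 and Mcm10 hold no E2F string, and that of Mcm6 holds 3 matches, some of them overlapping. Cdc7 and Mcm10 were picked for their fold changes and Mcm6 for its strings, so their contrast was set by that choice.

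Levels of the members span a wide range. Per kilobase of exon, Mcm6, Mcm3, Mcm7, Mcm5 and Pcna held ranks 1 to 5 in every group. Mcm6 was first, with 199 CPM per kb in AhR-KO MPP, 203 in WT MPP, 194 in AhR-KO LT-HSC and 186 in WT LT-HSC. Mcm3 came next in every group, at 139 to 154 CPM per kb. Ung, which encodes a glycosylase that removes uracil from DNA, was last in every group at 1.55 to 2.59 CPM per kb. E2f7 and E2f2 lay at 2.95 to 4.59 CPM per kb. Population differences were not largest among the most abundant members. When members were ordered by their level per kb in LT-HSC of the same genotype, the 11 highest had a median log2 fold change of 0.27 in both AhR-KO and WT, and the 11 lowest had 0.58 in AhR-KO and 0.35 in WT. The order and the difference use the same LT-HSC libraries, so this is a description.

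The first comparison asked how these genes differ between MPP and LT-HSC. In AhR-KO, 41 of 44 members had a log2 fold change above 0 and 24 passed the test, all higher in MPP. Over all genes of that comparison, 51.1% lay above 0, 12.5% were called higher and 10.7% lower. In WT, 42 of 44 had a log2 fold change above 0, 19 were higher in MPP and 1, Chaf1b, was lower. Over all genes there, 51% lay above 0, 11% were called higher and 11.3% lower. The median member differed by 0.41 on the log2 scale in AhR-KO and by 0.34 in WT, while the median of all genes in WT was 0.01. A call here is an adjusted p under 0.05 from edgeR's quasi-likelihood test, with Benjamini-Hochberg adjustment across 17416 genes, and errors of fold changes are SE. In bulk RNA, more cells in S phase and more of each RNA per cell cannot be told apart. MPP libraries lay wholly above LT-HSC libraries for 16 members in AhR-KO and 10 in WT, against 11.1% and 8.32% of all genes.

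**Figure D1:**
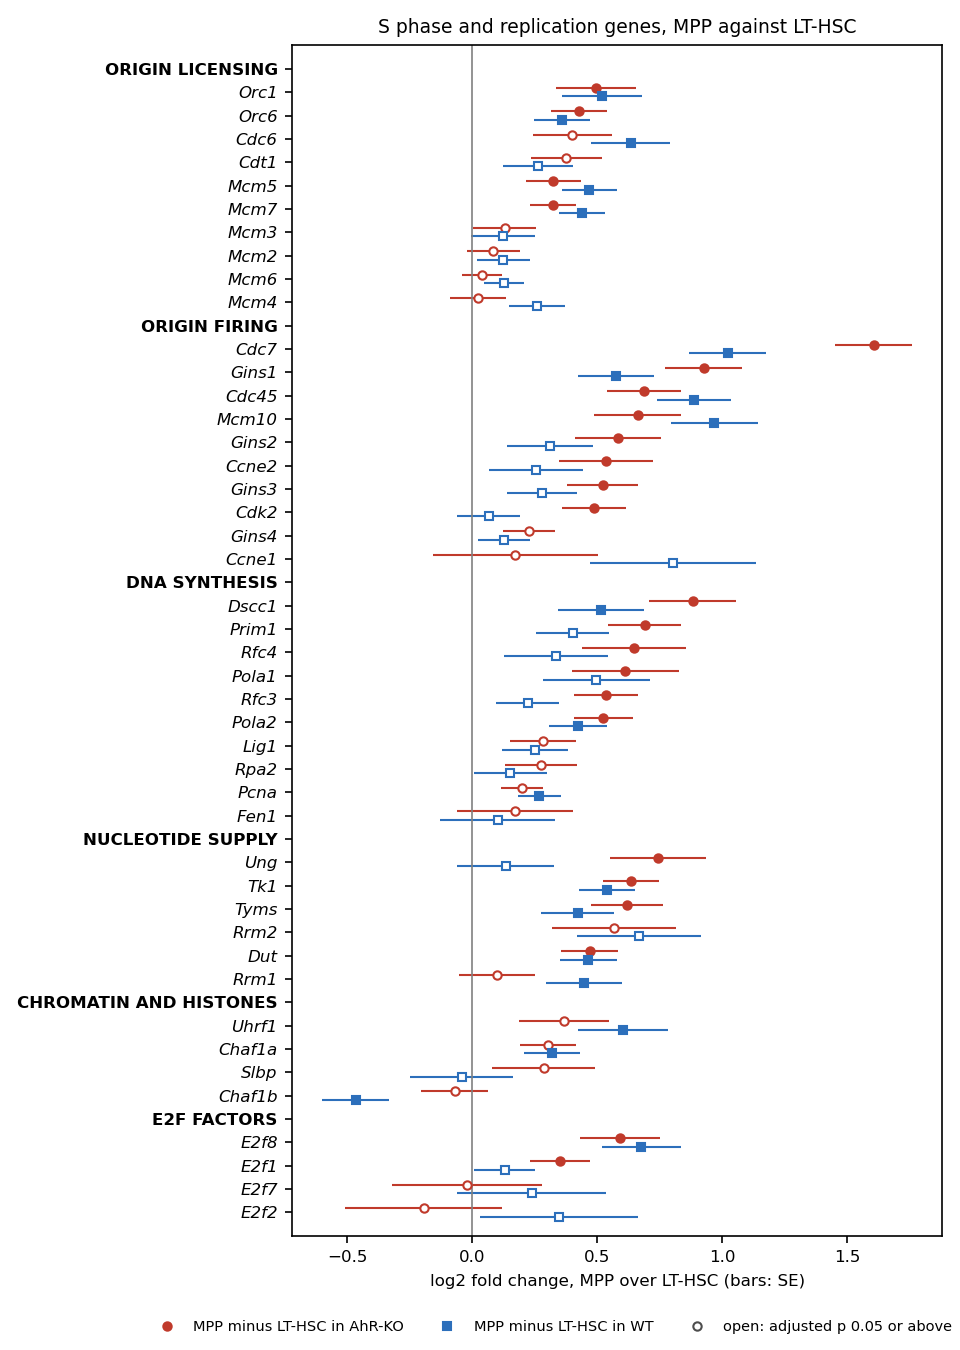
Log2 fold change of each of the 44 genes between MPP and LT-HSC, with its SE, in AhR-KO (red circles) and WT (blue squares), ordered by role; filled symbols passed an adjusted p of 0.05. Nearly all points lie right of 0; Cdc7 lies farthest right in both genotypes, and Chaf1b in WT is the sole filled symbol on the left.

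Among the origin licensing genes, subunits of the MCM helicase differed in their calls. Of the 10, 4 were higher in MPP in AhR-KO and 5 in WT. The helicase subunits Mcm5 and Mcm7 were higher in both genotypes, while Mcm2, Mcm3, Mcm4 and Mcm6, subunits of the same ring, passed in neither. Mcm7 had 482, 432, 565, 546 and 591 CPM in AhR-KO MPP, against 427, 425, 456, 424 and 356 in AhR-KO LT-HSC. It had 633, 559, 583, 485 and 536 CPM in WT MPP, against 391, 392, 414, 444 and 425 in WT LT-HSC. The WT populations did not overlap, and in AhR-KO 1 MPP library lay within the LT-HSC range. The log2 fold change of Mcm7 was 0.32 ± 0.09 in AhR-KO (adjusted p = 0.0146) and 0.44 ± 0.09 in WT (adjusted p = 0.00174). Mcm5 gave 0.32 ± 0.11 in AhR-KO (adjusted p = 0.0404) and 0.47 ± 0.11 in WT (adjusted p = 0.00453). Over 10 fits with 1 library left out, both genes kept their WT calls in all 10. In AhR-KO, Mcm7 kept its call in 5 of 10 such fits and Mcm5 in 1 of 10.

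Mcm6, the most abundant member, had 881, 825, 1006, 907 and 1033 CPM in AhR-KO MPP, against 909, 879.9, 968, 862 and 911 in AhR-KO LT-HSC. It had 1074, 962, 986, 852 and 863 CPM in WT MPP, against 924, 797, 901, 875 and 841 in WT LT-HSC. The populations overlapped in both genotypes, with log2 fold changes of 0.04 ± 0.08 in AhR-KO and 0.13 ± 0.08 in WT (edgeR adjusted p = 0.785 and 0.279). Mcm3 gave 0.13 ± 0.13 in AhR-KO and 0.12 ± 0.13 in WT, with adjusted p of 0.518 and 0.55. Mcm2 and Mcm4 gave 0.02 to 0.26 over both genotypes. No test of one subunit against another was made, and missing the threshold does not show that these levels were equal.

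Among the loaders of the helicase, Orc1 and Orc6 were higher in MPP in both genotypes and Cdc6 in WT. Orc1, the ATPase subunit of the origin recognition complex, averaged 20.9 ± 3.48 CPM in AhR-KO MPP against 14.8 ± 3.02 in AhR-KO LT-HSC, and 19.7 ± 3.34 in WT MPP against 13.8 ± 1.67 in WT LT-HSC (SD, n = 5 each). Its log2 fold changes were 0.50 ± 0.16 in AhR-KO (edgeR adjusted p = 0.0298) and 0.52 ± 0.16 in WT (0.024). Orc6, the smallest subunit of that complex, gave 0.43 ± 0.11 in AhR-KO and 0.36 ± 0.11 in WT, both called. Over 10 fits with 1 library left out, Orc1 kept its call in 2 in AhR-KO and 5 in WT. Orc6 kept its call in 9 in AhR-KO and 3 in WT. Cdc6, which loads the helicase with ORC and CDT1, had 144, 128, 116, 93.5 and 109.9 CPM in WT MPP, against 85.1, 57.9, 75.3, 86 and 76.5 in WT LT-HSC. No WT MPP library fell below any WT LT-HSC library. Its log2 fold change was 0.40 ± 0.16 in AhR-KO (adjusted p = 0.0746), where the test was missed, and 0.63 ± 0.16 in WT (adjusted p = 0.0065). Cdt1, the partner of CDC6 in loading, gave 0.38 ± 0.14 in AhR-KO and 0.26 ± 0.14 in WT and passed in neither.

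Origin firing genes included the member with the largest difference, Cdc7. Of the 10, 8 were higher in MPP in AhR-KO and 4 in WT. Cdc7, on chromosome 5 from 106964322 to 106984432 on the plus strand (GRCm38), encodes the kinase that phosphorylates the loaded helicase. It had 108, 106, 68.4, 102 and 79.6 CPM in AhR-KO MPP, against 34.3, 30.7, 26.1, 32.9 and 28.2 in AhR-KO LT-HSC. It had 118, 83.5, 64.7, 87.5 and 89.1 CPM in WT MPP, against 45.1, 36.4, 39.5, 46.1 and 50.8 in WT LT-HSC. Every MPP library lay above every LT-HSC library of its genotype. The log2 fold change was 1.61 ± 0.16 in AhR-KO (edgeR adjusted p = 4.49e-07) and 1.02 ± 0.15 in WT (adjusted p = 7.08e-05), the largest of any member in both.

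Cdc45, which travels with the helicase, had 73.5, 73.5, 74.8, 62.5 and 68.9 CPM in AhR-KO MPP, against 40.4, 49.9, 57.6, 39.1 and 32.2 in AhR-KO LT-HSC. It had 109, 72.8, 68.6, 67.8 and 85.1 CPM in WT MPP, against 46.5, 40.2, 49.1, 40 and 41.9 in WT LT-HSC. Here too the populations were separate in both genotypes, with log2 fold changes of 0.69 ± 0.15 in AhR-KO and 0.89 ± 0.15 in WT (edgeR adjusted p = 0.00191 and 0.00021). Mcm10, which helps start the fork, had 82.8, 59.6, 82.2, 78.1 and 91.8 CPM in AhR-KO MPP, against 43.8, 55.9, 74.1, 44.3 and 31.1 in AhR-KO LT-HSC. It had 90.7, 105, 105, 85.7 and 73.9 CPM in WT MPP, against 46.1, 43.4, 44.9, 47 and 53.7 in WT LT-HSC. The highest AhR-KO LT-HSC value belongs to library 3, one of those with raised neutrophil and erythroid genes, and it lay within the MPP range. Mcm10 gave 0.66 ± 0.17 in AhR-KO (adjusted p = 0.0087) and 0.97 ± 0.17 in WT (adjusted p = 0.000441).

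The GINS subunits, which join CDC45 and the helicase at the fork, had positive differences throughout. Gins1 gave 0.93 ± 0.15 in AhR-KO (edgeR adjusted p = 0.00018) and 0.58 ± 0.15 in WT (adjusted p = 0.00952), at 29.7 ± 4.34 CPM in AhR-KO MPP against 15.6 ± 1.20 in AhR-KO LT-HSC, and 28.2 ± 3.94 in WT MPP against 18.9 ± 4.82 in WT LT-HSC (SD, n = 5 each). Gins2 and Gins3 were higher in AhR-KO, at 0.58 ± 0.17 and 0.52 ± 0.14, and missed the test in WT, at 0.31 ± 0.17 and 0.28 ± 0.14. Gins4 passed in neither. The counts of Gins2 are uncertain, since 67.3% of its exon bases overlap exons of Gse1 on the other strand and the kit named in the labels does not mark strand.

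Cdk2 and the E cyclins behaved less evenly. Cdk2, the kinase that cyclin E activates, had 175, 141, 158, 175 and 159 CPM in AhR-KO MPP, against 119.9, 113, 117, 127 and 99.2 in AhR-KO LT-HSC. It had 150.3, 151, 139, 161 and 176 CPM in WT MPP, against 215, 133, 143, 133 and 121 in WT LT-HSC. In WT LT-HSC the library 1 stood above every MPP library of WT, and the highest of the other 4 still lay just above the lowest WT MPP library. The log2 fold change was 0.49 ± 0.13 in AhR-KO (edgeR adjusted p = 0.0084) and 0.07 ± 0.13 in WT (adjusted p = 0.773); without the library WT LT-HSC 1 the WT value was 0.23 ± 0.09 (adjusted p = 0.0463).

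Ccne1, cyclin E1, had 25, 22.7, 23, 18.5 and 24.2 CPM in AhR-KO MPP, against 11.3, 31.7, 38.3, 12.8 and 6.61 in AhR-KO LT-HSC. It had 22.2, 22.9, 25.8, 25.5 and 25.3 CPM in WT MPP, against 12.5, 11, 10.5, 19.2 and 16.5 in WT LT-HSC. Libraries 2 and 3 of AhR-KO LT-HSC were higher than every MPP library, and the other 3 lower. With all libraries neither difference passed (0.17 ± 0.33 in AhR-KO and 0.80 ± 0.33 in WT). Without those 2 libraries both passed, at 1.118 ± 0.22 in AhR-KO (edgeR adjusted p = 0.00151) and 0.78 ± 0.18 in WT (adjusted p = 0.00482). Ccne2, cyclin E2, passed in AhR-KO at 0.54 ± 0.19 (edgeR adjusted p = 0.0447) and not in WT at 0.26 ± 0.19.

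**Figure D2:**
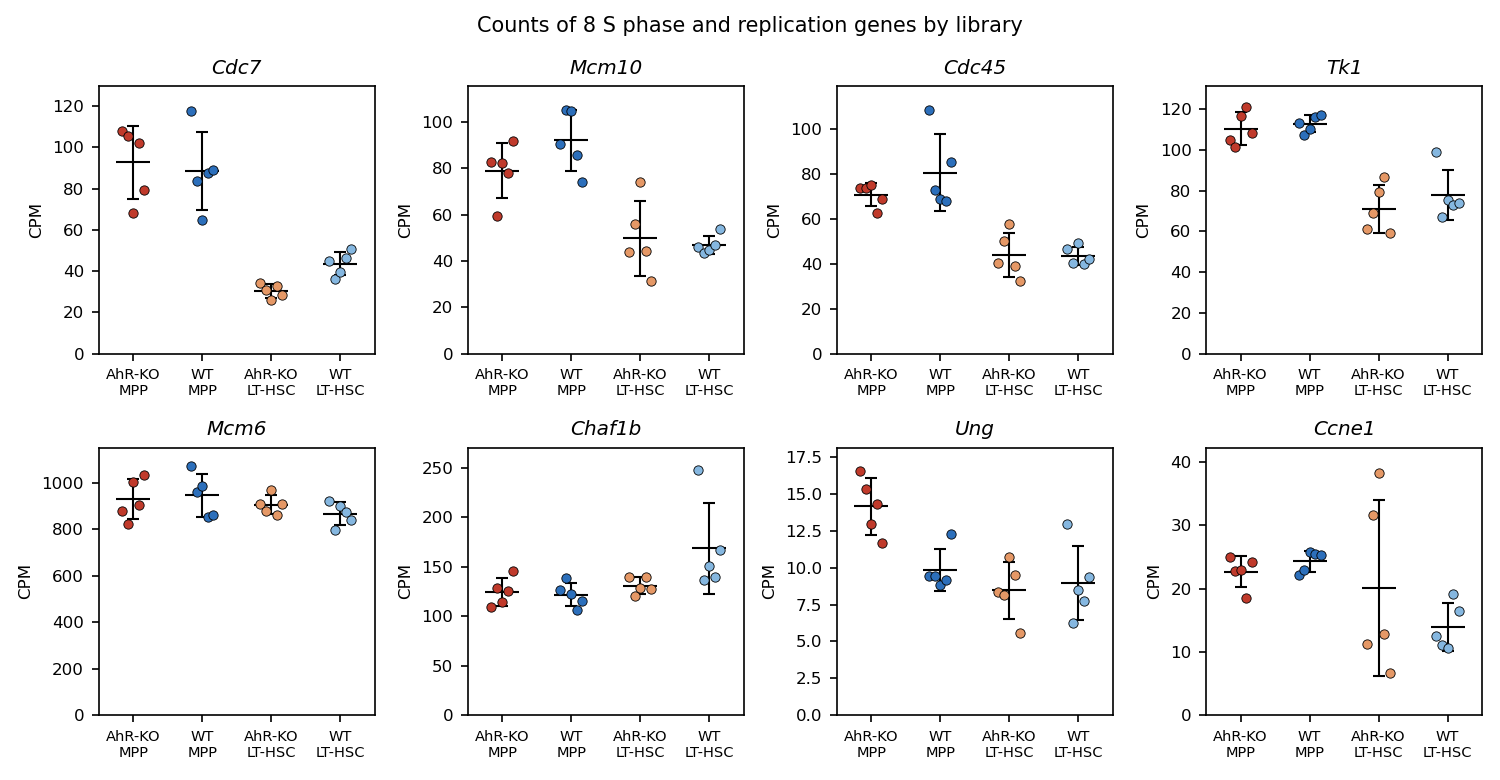
CPM of 8 genes in each library, with AhR-KO MPP, WT MPP, AhR-KO LT-HSC and WT LT-HSC from left to right; bars show mean and SD of 5 libraries. Cdc7 and Cdc45 separate the populations in both genotypes, Mcm6 does not, Chaf1b holds 1 high WT LT-HSC library at 248 CPM, and Ccne1 holds 2 high AhR-KO LT-HSC libraries.

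DNA synthesis genes followed in smaller steps. Of the 10, 6 were higher in MPP in AhR-KO and 3 in WT. Pola2, the regulatory subunit of the polymerase that starts each strand, had 141, 132, 149, 137 and 133 CPM in AhR-KO MPP, against 98.4, 98.6, 104, 109 and 71.3 in AhR-KO LT-HSC. It had 165, 144, 135, 123 and 160.0 CPM in WT MPP, against 135, 97.7, 110.3, 108 and 91.7 in WT LT-HSC. The AhR-KO populations were separate, and in WT the LT-HSC library 1 lay within the MPP range. The log2 fold changes were 0.52 ± 0.12 in AhR-KO and 0.42 ± 0.12 in WT (edgeR adjusted p = 0.00276 and 0.013). Dscc1, a subunit of a clamp loader that acts in sister chromatid cohesion, gave 0.88 ± 0.17 in AhR-KO (adjusted p = 0.000949) and 0.51 ± 0.17 in WT (adjusted p = 0.038). With 1 library left out, Dscc1 kept its call in 10 of 10 fits in AhR-KO and 1 of 10 in WT.

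The other synthesis genes passed in 1 genotype or in none. Prim1, the primase subunit, gave 0.69 ± 0.15 in AhR-KO (edgeR adjusted p = 0.00173) and 0.40 ± 0.15 in WT (adjusted p = 0.054). The polymerase subunit Pola1 gave 0.61 ± 0.21 in AhR-KO and 0.50 ± 0.21 in WT. The clamp loader subunits Rfc3 and Rfc4 gave 0.53 ± 0.13 and 0.65 ± 0.21 in AhR-KO. All 3 passed in AhR-KO alone. Over 10 fits with 1 library left out, Rfc3 kept its AhR-KO call in all 10, Rfc4 in 2 and Pola1 in 0. Pcna, the sliding clamp, gave 0.20 ± 0.09 in AhR-KO (adjusted p = 0.105) and 0.27 ± 0.09 in WT (adjusted p = 0.0295). Lig1, Rpa2 and Fen1, which act in joining fragments, coating single strands and trimming flaps, gave 0.17 to 0.28 in AhR-KO and 0.10 to 0.25 in WT, and none passed. The count of Fen1 is uncertain, as 78.8% of its exon bases overlap the antisense gene Gm10143.

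Of the 6 genes grouped under nucleotides, 4 were higher in MPP in each genotype. Tk1, thymidine kinase, had 105, 101, 117, 121 and 108 CPM in AhR-KO MPP, against 61.4, 69, 79.2, 86.8 and 59 in AhR-KO LT-HSC. It had 113, 107, 110.1, 116 and 117 CPM in WT MPP, against 98.9, 66.9, 75.3, 73.1 and 74 in WT LT-HSC. No library of one population reached the other in either genotype. The log2 fold changes were 0.64 ± 0.11 in AhR-KO and 0.54 ± 0.11 in WT (edgeR adjusted p = 0.00035 and 0.00159). Dut, which breaks down dUTP, gave 0.47 ± 0.11 in AhR-KO and 0.46 ± 0.11 in WT (adjusted p = 0.00499 and 0.00572). Tyms, thymidylate synthase, gave 0.62 ± 0.15 in AhR-KO and 0.42 ± 0.15 in WT (adjusted p = 0.00396 and 0.0425). With 1 library left out, Tyms kept its call in 10 of 10 fits in AhR-KO and 1 of 10 in WT.

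The fourth gene called in this group was Ung in AhR-KO and Rrm1 in WT. Ung was grouped here although its glycosylase removes uracil from DNA and does not supply nucleotides. Ung had 16.6, 15.4, 12.9, 14.3 and 11.7 CPM in AhR-KO MPP, against 8.33, 8.12, 10.7, 9.52 and 5.58 in AhR-KO LT-HSC. It had 9.42, 9.47, 8.80, 9.18 and 12.3 CPM in WT MPP, against 13, 6.26, 8.46, 7.77 and 9.35 in WT LT-HSC. The AhR-KO populations were separate and the WT populations overlapped, with log2 fold changes of 0.74 ± 0.19 (edgeR adjusted p = 0.0085) and 0.13 ± 0.19 (adjusted p = 0.691). Rrm1, the large subunit of ribonucleotide reductase, gave 0.10 ± 0.15 in AhR-KO (adjusted p = 0.705) and 0.45 ± 0.15 in WT (adjusted p = 0.0419). Rrm2, the small subunit of that enzyme, gave 0.57 ± 0.25 in AhR-KO and 0.67 ± 0.25 in WT and passed in neither, though it passed in both without AhR-KO LT-HSC 2 and 3.

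Among the 4 chromatin genes the WT calls ran both ways, and none passed in AhR-KO. Chaf1b, a subunit of the histone chaperone CAF-1, had 127, 138, 122, 106 and 116 CPM in WT MPP, against 248, 136, 151, 140.0 and 167 in WT LT-HSC. In AhR-KO it had 109, 129, 115, 125 and 146 CPM in MPP, against 139.7, 120.1, 128, 139.6 and 127 in LT-HSC. It was the sole member called lower in MPP, in WT alone, at -0.07 ± 0.13 in AhR-KO (edgeR adjusted p = 0.768) and -0.47 ± 0.13 in WT (adjusted p = 0.0164). Without the library WT LT-HSC 1, which had the highest value, the WT value was -0.29 ± 0.09 (adjusted p = 0.0235). Chaf1a, the large subunit of the same chaperone, gave 0.30 ± 0.11 in AhR-KO (adjusted p = 0.0589) and 0.32 ± 0.11 in WT (adjusted p = 0.047), though 52.5% of its exon bases overlap Ubxn6 on the other strand.

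Uhrf1, which brings the maintenance DNA methyltransferase to copied DNA, gave 0.37 ± 0.18 in AhR-KO (edgeR adjusted p = 0.157) and 0.60 ± 0.18 in WT (adjusted p = 0.0197). Slbp, which binds the stem-loop of histone mRNAs, had 253, 326, 256, 289 and 286 CPM in WT MPP, against 559.7, 202, 224, 229 and 237 in WT LT-HSC. Without library 1, whose value was more than that of any MPP library, every WT MPP library lay above the WT LT-HSC libraries. Its log2 fold change was 0.28 ± 0.21 in AhR-KO and -0.04 ± 0.21 in WT.

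Of the 4 E2F factors, 2 were higher in MPP in AhR-KO and 1 in WT. E2f8, an atypical E2F that represses its targets, gave 0.59 ± 0.16 in AhR-KO (edgeR adjusted p = 0.0106) and 0.68 ± 0.16 in WT (adjusted p = 0.00429). E2f1, an activator, gave 0.35 ± 0.12 in AhR-KO (adjusted p = 0.0415) and 0.13 ± 0.12 in WT (adjusted p = 0.505). E2f2, another activator, had 15.5, 21.1, 14.8, 18.6 and 27.8 CPM in AhR-KO MPP, against 16.1, 33.6, 33.4, 20.8 and 8.0 in AhR-KO LT-HSC. Libraries 2 and 3 of AhR-KO LT-HSC were again the highest, above every MPP library of that genotype; without them the value was 0.36 ± 0.32 (edgeR adjusted p = 0.489). With all libraries, neither E2f2 (-0.19 ± 0.31 in AhR-KO and 0.35 ± 0.32 in WT) nor the repressor E2f7 (-0.02 ± 0.30 and 0.24 ± 0.30) passed.

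The calls of the genotypes overlapped in part. In both genotypes 14 members were higher in MPP, which is 58.3% of the AhR-KO calls and 73.7% of the WT calls: Cdc45, Cdc7, Dscc1, Dut, E2f8, Gins1, Mcm10, Mcm5, Mcm7, Orc1, Orc6, Pola2, Tk1 and Tyms. Another 10 passed in AhR-KO alone and 5 in WT alone, and 15 were higher in neither. Of the 14, 7 kept their calls in both genotypes with each library left out in turn: Cdc45, Cdc7, Dut, Gins1, Mcm10, Pola2 and Tk1. In AhR-KO 14 of the 24 calls were kept in all 10 such fits, and in WT 11 of the 19. The AhR-KO calls of Ccne2, E2f1, Orc1 and Rfc4 were kept in 2 of 10 fits. That of Mcm5 was kept in 1 and that of Pola1 in 0. The WT calls of Pcna and Rrm1 were kept in 2 of 10, and those of Chaf1a, Dscc1 and Tyms in 1. Passing in 1 genotype alone does not show a difference between genotypes; that difference was tested separately and no member passed it.

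The calls moved with the libraries that stand apart. WT LT-HSC 1 had the highest value of its group for 29 of 44 members, or 65.9%, against 37.9% of all genes. Without it, 31 members were higher in WT MPP, where 15.2% of 17788 genes were called higher. Of the 19 members called with all libraries 18 were kept, Chaf1a was lost, and 13 were added, among them Cdk2, Gins2, Gins3, Prim1, Rfc3, Rfc4 and Slbp. Of the 31, 21 were also called in AhR-KO. Without AhR-KO LT-HSC 2 and 3, 22 members were higher in AhR-KO MPP, where 9.88% of 18200 genes were called higher. Of the 24 called with all libraries 18 were kept, Ccne2, E2f1, Gins3, Mcm5, Pola1 and Rfc4 were lost, and Ccne1, Cdc6, Cdt1 and Rrm2 were added. In WT, which shares the estimate of spread, 18 were then higher: 16 were kept, Chaf1a, Rrm1 and Tyms were lost, and Ccne1 and Rrm2 were added.

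Differences between libraries varied with gene length, and WT LT-HSC 1 was not alone in this. Its log2 difference from the median of the other 4 WT LT-HSC libraries had a Spearman rho of -0.25 with exon length over the 44 members and -0.34 over 16883 genes, which share that library. The 22 shorter members, of 1349 to 4097 bases, had a median difference of 0.45, and the 22 longer ones, of 4183 to 11012 bases, had 0.23. WT MPP 5 gave a rho of -0.38 over the members and -0.31 over all genes against the other WT MPP libraries, and AhR-KO MPP 5 gave 0.39 and 0.30 against the other AhR-KO MPP libraries. In WT LT-HSC 1, Fen1, Rfc4 and Slbp were among those raised most, Slbp being 1 of the 22 longer members, while Pola1, E2f7 and Uhrf1 lay below the other libraries. The part of length in the counts above was not tested.

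**Figure D3:**
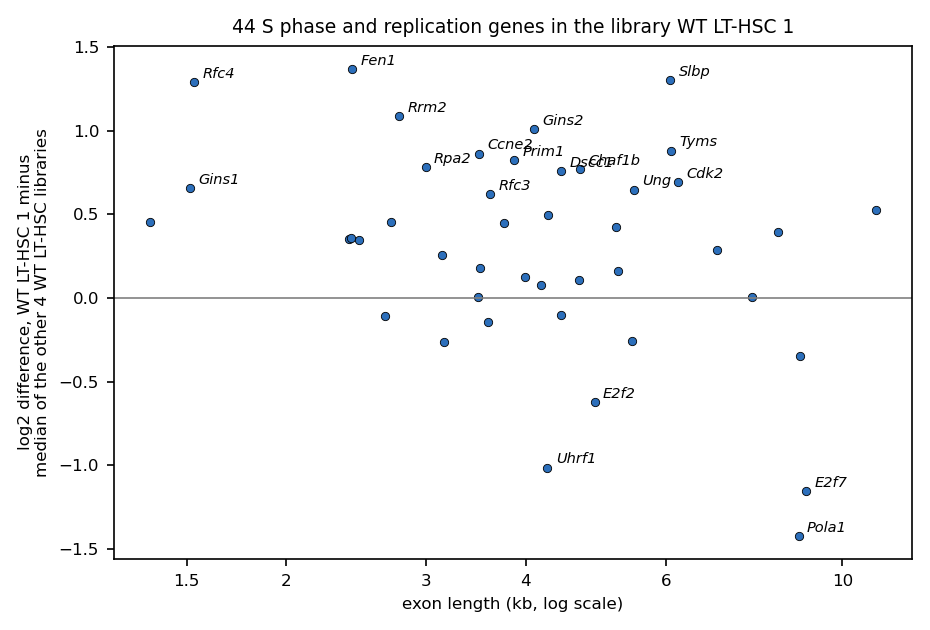
Log2 difference of each of the 44 genes between the library WT LT-HSC 1 and the median of the other 4 WT LT-HSC libraries (vertical axis) against exon length in kb (horizontal log axis). Most points lie above 0 among both the 22 shorter members (19) and the 22 longer ones (15). The lowest points, Pola1 and E2f7, lie among the longest genes. Uhrf1, of 4259 bases, is also low at -1.01, and the longest gene, Rrm1, lies at 0.53.

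The second comparison asked whether AhR-KO cells differ from WT cells of the same population. In MPP, none of the 44 members passed the test, where 5 of 16077 genes did (0.0311%). The median member differed by -0.02 on the log2 scale, with 21 values above 0 (50.9% of all genes) and 23 below, and 2 members had an unadjusted p under 0.05, as 6.62% of all genes did. In LT-HSC, none of the 44 passed, where 1 of 16065 genes did (0.00622%). The median was -0.05, with 18 values above 0 (50.1% of all genes) and 26 below, and 3 members had an unadjusted p under 0.05, as 8.85% of all genes did. That balance of signs moved with the libraries that stand apart and with the method: without WT LT-HSC 1, 30 members lay above 0 and 14 below (median 0.04), and by limma voom 30 and 14 as well. Without AhR-KO LT-HSC 2 and 3, 6 lay above 0 and 38 below (median -0.17), and without all 3 libraries 14 and 30 (median -0.06). DESeq2 called none of the members in MPP and 1, Cdc7, in LT-HSC, and limma voom called none in either. Missing the threshold does not show that the genotypes were equal.

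**Figure D4:**
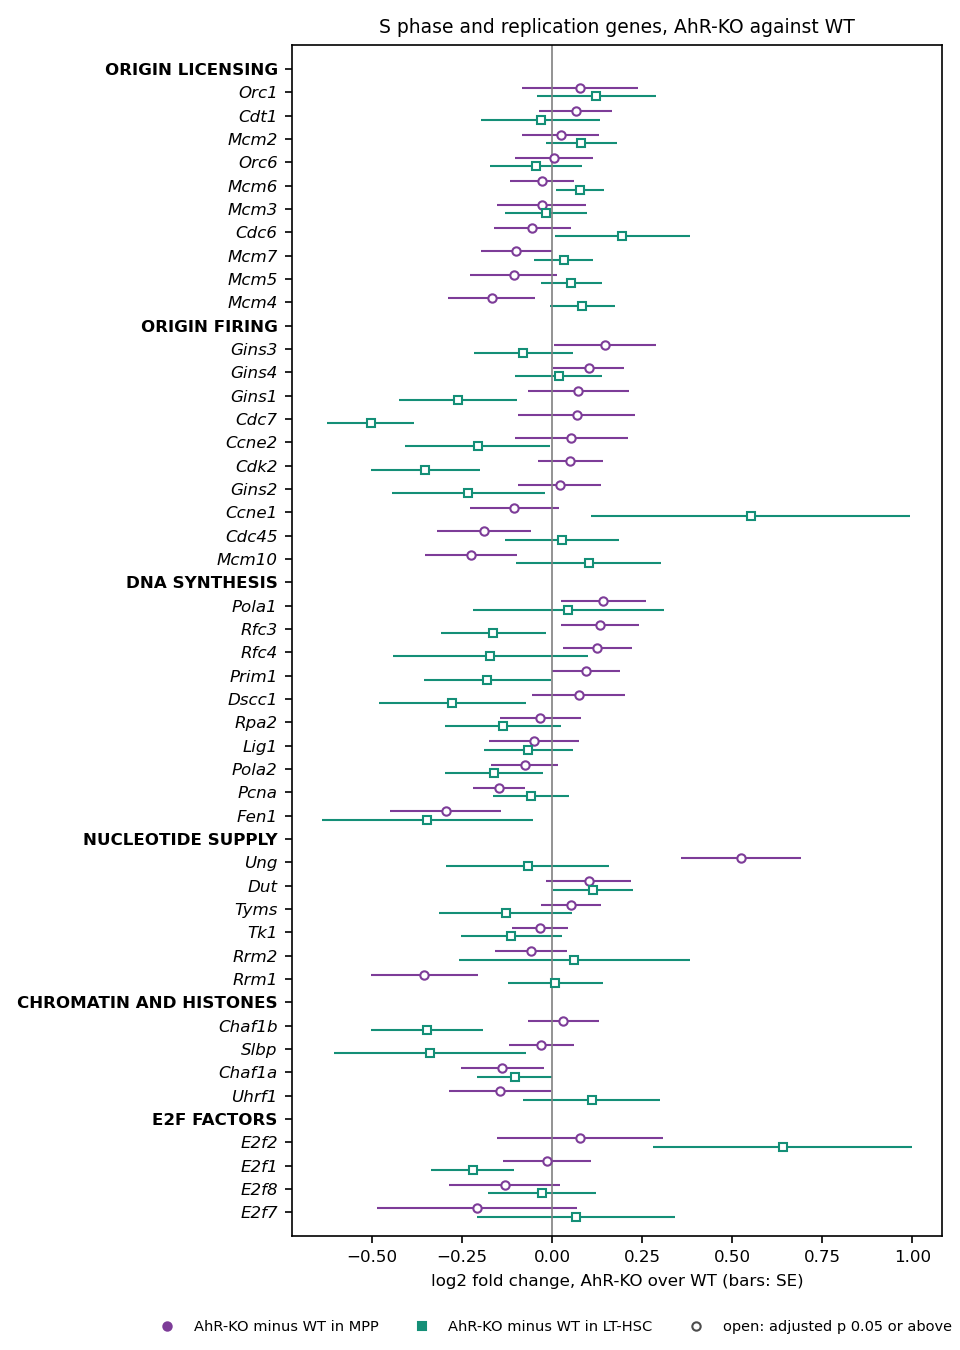
Log2 fold change of each of the 44 genes between AhR-KO and WT, with its SE, in MPP (purple circles) and LT-HSC (green squares), ordered by role; all symbols are open, as none passed an adjusted p of 0.05. Points scatter on both sides of 0; Cdc7 in LT-HSC lies at -0.50 and Ung in MPP at 0.52.

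In LT-HSC the member with the smallest p was Cdc7. It had 34.3, 30.7, 26.1, 32.9 and 28.2 CPM in AhR-KO LT-HSC, against 45.1, 36.4, 39.5, 46.1 and 50.8 in WT LT-HSC. All 5 AhR-KO libraries lay below all 5 WT libraries, and Cdc7 was the sole member with no overlap in either direction. Of all 16065 genes, 226 (1.41%) were lower without overlap and 358 were higher without overlap. The log2 fold change was -0.50 ± 0.12, with an unadjusted p of 0.00159 and an adjusted p of 0.375 in edgeR, while DESeq2 gave an adjusted p of 0.0128. In MPP the same gene gave 0.07 ± 0.16, with 92.8 ± 17.7 CPM in AhR-KO against 88.5 ± 19.1 in WT (SD, n = 5 each).

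Cdk2 averaged 115 ± 10.3 CPM in AhR-KO LT-HSC against 149 ± 37.7 in WT LT-HSC, and Chaf1b 131 ± 8.48 against 169 ± 46.1 (SD, n = 5 each). Both groups of each gene overlapped, and both genes had their highest WT value in library 1. Their log2 fold changes were -0.35 ± 0.15 and -0.35 ± 0.16 (edgeR adjusted p = 0.55 and 0.561); without WT LT-HSC 1 they were -0.18 ± 0.08 and -0.17 ± 0.07 (adjusted p = 0.217 and 0.231). The members with the smallest p of the other roles gave 0.08 ± 0.07 for Mcm6, -0.28 ± 0.20 for Dscc1, 0.11 ± 0.11 for Dut and -0.22 ± 0.12 for E2f1.

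In MPP the member with the smallest p was Ung. It had 16.6, 15.4, 12.9, 14.3 and 11.7 CPM in AhR-KO MPP, against 9.42, 9.47, 8.80, 9.18 and 12.3 in WT MPP. The ranges overlapped through WT library 5 alone, whose value lay above the lowest of AhR-KO. The log2 fold change was 0.52 ± 0.17, with an unadjusted p of 0.00776 and an edgeR adjusted p of 0.614. Rrm1 had 384, 397, 502, 409.5 and 563 CPM in AhR-KO MPP, against 774, 613, 557, 513 and 427 in WT MPP. The ranges overlapped here as well, and the log2 fold change was -0.35 ± 0.15 (unadjusted p = 0.0331, edgeR adjusted p = 0.686).

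Pcna had 246, 214, 246, 238 and 246 CPM in AhR-KO MPP, against 251, 271, 267, 252 and 273 in WT MPP. All AhR-KO values lay below all WT values, with a log2 fold change of -0.15 ± 0.07 that did not pass (edgeR adjusted p = 0.769). Pcna was the sole member with no overlap in either direction in MPP. Of all 16077 genes, 90 (0.56%) were lower without overlap and 98 were higher without overlap. The members with the smallest p of the other roles gave -0.17 ± 0.12 for Mcm4, -0.23 ± 0.13 for Mcm10, -0.13 ± 0.15 for E2f8 and -0.14 ± 0.11 for Chaf1a.

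The third comparison asked whether the genotype difference itself changed between MPP and LT-HSC, which equals asking whether the population difference changed with genotype. No member passed, and no gene of 17416 did (0%); 3 members and 6.46% of all genes had an unadjusted p under 0.05. By DESeq2, 51 genes and no member passed, and by limma voom 18 genes and no member. The smallest p belonged to Cdc7, at 0.59 ± 0.21 (unadjusted p = 0.013, edgeR adjusted p = 0.643). Cdk2 gave 0.42 ± 0.18, Ung 0.61 ± 0.27, Chaf1b 0.40 ± 0.19 and Rfc3 0.31 ± 0.18, with edgeR adjusted p of 0.750 to 0.824. The population comparisons and the genotype comparisons share libraries, so that values of the same gene across them are not independent.

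Other genes of the same processes were counted between populations in the same way. Of 41 further replication genes tested, 17 were higher in AhR-KO MPP and 18 in WT MPP than in LT-HSC, and none were lower, with medians of 0.39 and 0.35. They include Top2a, the topoisomerase that untangles sister DNA, at 0.63 ± 0.13 in AhR-KO and 1.10 ± 0.14 in WT. Chtf18, the partner of Dscc1 in its clamp loader, gave 0.89 ± 0.12 and 0.85 ± 0.12 in the same order. Of 24 genes of S phase chromatin and repair, 10 were higher in AhR-KO and 9 in WT, and none were lower. Ezh2, the methyltransferase of Polycomb complex PRC2, gave 0.81 ± 0.10 in AhR-KO and 0.82 ± 0.10 in WT.

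Of 24 further nucleotide genes, 5 were higher in AhR-KO MPP and 3 in WT MPP, and 2 were lower in WT alone, with medians of 0.05 and 0.06. Over all genes 12.5% were higher in AhR-KO, and 11% higher and 11.3% lower in WT, so the WT counts of this list are near the background. Impdh1, which makes guanine nucleotide precursors, was among the higher ones at 0.56 ± 0.07 in AhR-KO and 0.70 ± 0.08 in WT. Dctd, deoxycytidylate deaminase, was one of the lower ones at -0.41 ± 0.10 in WT, against -0.16 ± 0.10 in AhR-KO, where it did not pass. Of 22 further E2F network genes, 7 were higher and 3 lower in AhR-KO MPP, and 4 were higher and 2 lower in WT MPP. Ccna2, cyclin A2, gave 0.41 ± 0.13 in AhR-KO and 0.84 ± 0.13 in WT, while Ccnd2, cyclin D2, was lower at -0.88 ± 0.09 and -0.96 ± 0.09.

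Mitotic genes had larger medians than the S phase genes. Of 39 genes of G2 and mitosis, 28 were higher in AhR-KO MPP and 33 in WT MPP, with medians of 0.69 and 0.89, where the 44 S phase genes had 0.41 and 0.34. Sgol1, which protects centromere cohesion, gave 0.96 ± 0.11 in AhR-KO and 1.07 ± 0.11 in WT. Of 13 genes of CDK inhibition and quiescence, 5 were lower and 2 higher in AhR-KO MPP, and 6 were lower and 3 higher in WT MPP. Cdkn1c, the inhibitor p57, was lower at -2.97 ± 0.34 in AhR-KO and -3.35 ± 0.34 in WT, and Cdkn1a, the inhibitor p21, was higher at 2.17 ± 0.21 and 1.90 ± 0.21. The difference between these lists was not tested.

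Summed over members, the S phase genes held 7596 ± 682 CPM in AhR-KO MPP against 6261 ± 556 in AhR-KO LT-HSC, a ratio of 1.21, and 7900 ± 632 in WT MPP against 6415 ± 803 in WT LT-HSC, a ratio of 1.23 (SD, n = 5 each). The mitotic genes held 4621 ± 251 CPM in AhR-KO MPP against 2838 ± 350 in AhR-KO LT-HSC, a ratio of 1.63, and 5692 ± 850 in WT MPP against 3120 ± 896 in WT LT-HSC, a ratio of 1.82. By role, firing genes had the highest ratio in AhR-KO, at 1.54, and nucleotide genes in WT, at 1.41. Licensing genes had ratios of 1.118 in AhR-KO and 1.19 in WT.

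Between genotypes none of these pathway lists had a called member in either population, by edgeR (DESeq2 called 1 mitotic gene in MPP), and those other than the mitotic list had 0 to 5 members at an unadjusted p under 0.05. In MPP all 39 mitotic genes had a log2 fold change below 0 in AhR-KO against WT, with a median of -0.28 and 23 at an unadjusted p under 0.05, while the median of the 44 S phase genes was -0.02. Over all genes there, 49.1% lay below 0 and 6.62% had an unadjusted p under 0.05. The library WT MPP 1 was the highest of its group for 29 of the 39; without it 38 lay below 0, with a median of -0.23 and 10 at an unadjusted p under 0.05. Over the single libraries left out, 37 to 39 lay below 0. Markers of some other cells lay to 1 side in the same comparison. All 11 B cell genes lay above 0, with sums of 89 to 173 CPM in AhR-KO MPP against 61.9 to 118 in WT MPP. All 10 megakaryocyte genes tested lay below 0, 1 of them called, with sums of 462 to 867 CPM in AhR-KO MPP against 586 to 829.1 in WT MPP. Other lists lay on both sides of 0. Neutrophil genes had 8 above and 5 below, and monocyte and macrophage genes 8 and 4. T and NK cell genes had 6 above and 2 below, erythroid genes 3 and 9, and stroma and endothelium genes 3 and 3. The part of these markers in the mitotic values was not tested. Cenpf, a kinetochore protein, had the smallest p of the mitotic list, at -0.66 ± 0.14 (adjusted p = 0.342). In LT-HSC the mitotic median was -0.10, with 31 of 39 below 0, where 49.9% of all genes were; without WT LT-HSC 1, 11 of 39 lay below 0. The summed S phase genes in AhR-KO were 0.96 times those in WT in MPP and 0.98 times in LT-HSC, and the summed mitotic genes were 0.81 and 0.91 times.

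**Figure D5:**
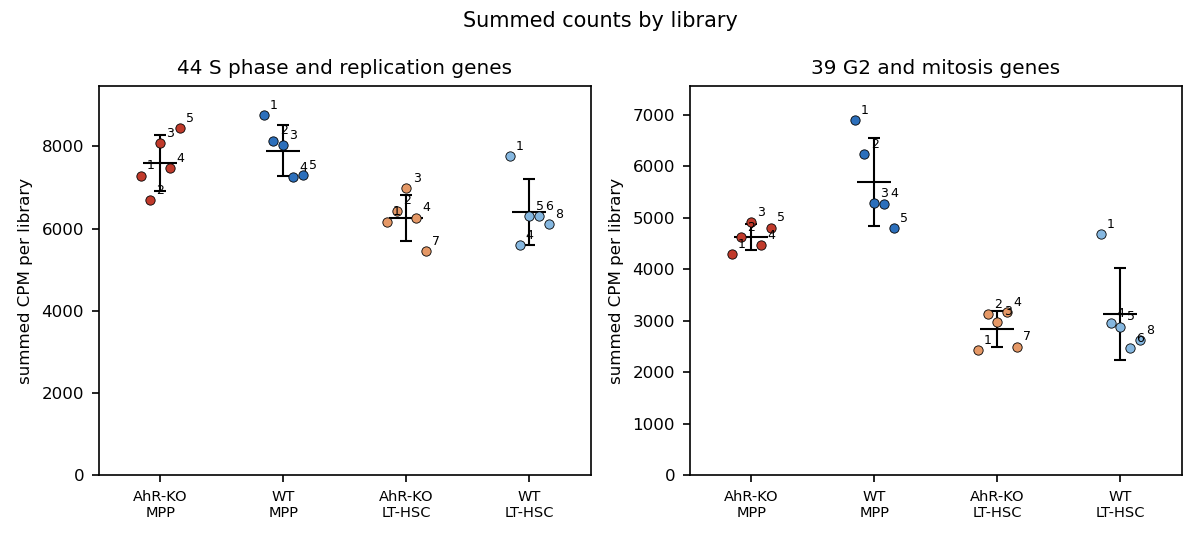
Summed CPM per library of the 44 S phase and replication genes (left) and of 39 G2 and mitosis genes (right), with library numbers, in AhR-KO MPP, WT MPP, AhR-KO LT-HSC and WT LT-HSC; bars show mean and SD of 5 libraries. The library WT LT-HSC 1 lies above the other 4 of its group in both panels, at 7757 CPM on the left and 4682 on the right.

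The median member varied less between libraries than the median gene. The members' median biological coefficient of variation was 17.3%, against 24.4% over all genes tested. No comparison with genes of like level was made. Within groups the order of libraries was shared by many members. AhR-KO LT-HSC 7 had the lowest value of its group for 32 of 44 members (72.7%, against 24.1% of all genes), and AhR-KO LT-HSC 3 the highest for 25 (56.8%, against 17.5%). WT LT-HSC 4 was lowest for 26 (59.1%, against 13.6%). In MPP, AhR-KO MPP 5 was highest for 20 members (45.5%, against 22.2%) and AhR-KO MPP 2 lowest for 20 (45.5%, against 20.4%). In WT MPP, library 1 was highest for 16 (36.4%), not far from its 27.9% of all genes. Members of a group of libraries are thus not independent of one another, and counts of members do not count independent events.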

How the data were processed

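RNA of 20 libraries was measured by sequencing. The submitters deposited whole-number counts per gene symbol in 2 tables, 1 per population. Per the submitters' processing notes, tools included the trimmer Trimmomatic (0.36), the aligner STAR (2.5.2b), featureCounts of Subread (1.5.0p3) and DESeq2 (1.12.4), on genome GRCm38.p5; their settings and gene models are not given in these sources. Per the labels' protocols, poly(A) RNA was used with a TruSeq kit, in a passage that speaks of DC samples, 3 per group, while the groups here hold 5 libraries.

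The tables were joined by symbol. With edgeR 4.0.16 in R 4.3.3, genes were filtered (filterByExpr), scaled (TMM) and tested two-sided by the robust quasi-likelihood test. Populations and the contrast of contrasts used all 20 libraries in 1 fit, and genotypes the 10 libraries of a population. SE is the log2 fold change over the square root of F. Depth was 13712668 to 21622653 counts, and the spread between libraries set the precision of the members. The script was tested on simulated data. Exon lengths and positions came from GENCODE M21 (GRCm38), promoters from RefSeq (GRCm38.p6).

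Members, lists and tests were chosen with earlier results of these data known. In each role, members named were up to 4 with the smallest p and 1 with the largest p in WT, members called lower, and, between genotypes, those at an unadjusted p under 0.05 or first in their role. Members named beside these were chosen after their values were seen. Alternatives were DESeq2 size factors, no filter, a filter of 5 CPM in 5 libraries, DESeq2 1.42.0, limma 3.58.1 voom with quality weights, fewer or more groups in the fit, the replicate number as a block, and libraries left out. Leaving out libraries for the mitotic list was chosen after seeing the data.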

Additional observations from a re-analysis of the deposited data

Results flagged for a closer look

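The values looked at were those of the named members and sums of members and of mitotic genes. Of 156 groups of 5 values, 23 held a library far from the other 4 by Dixon's criterion at the 95% level (14.7%). Chance gives about 5% for independent groups that were not selected. These groups share libraries and members were named partly by their p, so 14.7% is not a test against 5%. The library WT LT-HSC 1 accounted for 17 of the 23. It was high for Cdk2 (214.6 CPM, others 121 to 143), Chaf1b (248, others 136 to 167), Dscc1 (29.3, others 16.1 to 19.1), Dut (145, others 108 to 117), Fen1 (22.5, others 7.89 to 9.22) and Mcm3 (681, others 467 to 517). It was also high for Prim1 (135, others 68.6 to 80.7), Rfc3 (70.7, others 43.3 to 50.1), Rrm1 (568, others 363 to 396), Slbp (559.7, others 202 to 237), Tk1 (98.9, others 66.9 to 75.3) and Tyms (168, others 82.4 to 102). For Uhrf1 it was low, at 126 CPM against 222 to 257. Its sums were high for firing genes (632 CPM, others 426 to 458), synthesis genes (1319, others 862 to 972), nucleotide genes (1269, others 734 to 846) and the 39 mitotic genes (4682, others 2458 to 2952).

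The library AhR-KO LT-HSC 7 was low for Dut (103 CPM, others 128 to 137), for Pola2 (71.3, others 98.4 to 109) and for the sum of synthesis genes (812, others 944 to 971). AhR-KO MPP 2 was low for Pcna, at 214 CPM against 238 to 246. WT MPP 5 was high for Ung, at 12.3 CPM against 8.80 to 9.47, and low for the sum of the 4 E2F factors, at 140.3 CPM against 189 to 197.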

How the results depend on the processing

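Between populations, the count of members higher in WT MPP, 19 with all libraries, was 12 with no filter, 36 by limma voom, 10 with WT libraries alone, 30 without AhR-KO LT-HSC 2 and 3 and WT LT-HSC 1, and 12 to 31 with each library left out, the highest without WT LT-HSC 1. Without that library alone the added members are those given above; for the other settings the cause was not tested. The count in AhR-KO, 24, was 15 to 23 with each library left out, lowest without AhR-KO LT-HSC 7, and 32 without those 3 libraries. Chaf1b was lower in WT under each setting but 2: WT libraries alone gave 0 members lower, and so did the replicate block. All genes called in WT, 3876, numbered 6493 by voom. No median of the members changed sign between populations under these settings.

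Replicate numbers gave a mixed picture of pairing, and the main fits did not use them. Between populations in WT, same-numbered libraries correlated at -0.10 to 0.04, and each correlated best with another number. Between populations in AhR-KO they correlated at 0.02 to 0.23, and numbers 2, 3 and 4 correlated best with their own. Between genotypes they correlated at -0.06 to 0.07 in LT-HSC and -0.25 to 0.01 in MPP, each best with another number. The replicate block used only libraries with a shared number: 1, 4 and 5 in WT and 1, 2, 3 and 4 in AhR-KO. With it, 0 members were higher in WT and 17 in AhR-KO, and 113 genes in all were called in WT. In WT 41 members still lay above 0, with a median log2 fold change of 0.36. The block and the smaller number of libraries cannot be told apart here. Between genotypes, 0 genes in all were called under the block in LT-HSC, where only numbers 1 and 4 are shared, and in MPP.

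Between genotypes, the genes called in LT-HSC, 1 in the report, were 3 with DESeq2 size factors, 4 with no filter, 3 at 5 CPM, 149 by DESeq2, 305 by voom, 14 in 1 fit of all libraries, 32 without the 3 libraries, and 0 to 203 with each left out, the highest without WT LT-HSC 1. Of the members, DESeq2 called 1 lower, Cdc7. In MPP, 5 genes in the report became 3 with DESeq2 size factors, 50 by DESeq2, 8 by voom and 0 to 4 with each library left out. For the contrast of contrasts DESeq2 called 51 genes and voom 18. The cause was not tested.

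Some signs of log2 fold changes turned. In WT between populations, Fen1 was -0.0168 under the block and -0.0219 to 0.51 with each library left out, Slbp 0.35 by voom, 0.34 without the 3 libraries and -0.17 to 0.34 with each left out, and Cdk2 -0.0207 to 0.23. In AhR-KO, Mcm3 was -0.0400 and Rrm1 -0.0662 under the block, Mcm3 -0.0035 to 0.17, Rrm1 -0.0326 to 0.14 and E2f7 -0.25 to 0.0818 with each left out, and E2f2 0.36 without AhR-KO LT-HSC 2 and 3 and 0.38 without the 3 libraries. Between genotypes in LT-HSC, Dscc1 was 0.0021 without the 3 libraries and E2f1 0.0642 under the block. The members' median between genotypes also turned, to 0.0540 by voom and 0.0375 without WT LT-HSC 1 in LT-HSC, and to 0.00822 without WT MPP 1 and 0.00898 without AhR-KO MPP 2 in MPP.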
